A study of Mus musculus with 10 samples.

Results

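The pan-macrophage identity genes are 7 genes, Adgre1, Lyz2, Aif1, Sirpa, Cd63, Cd68 and Mpeg1, picked by symbol from the 13809 genes of the deposited expression table. All 7 passed the filter on low values and were tested in every comparison. Their levels were compared between macrophages of 2 origins, both taken from marrow of 12-week-old C57BL/6 mice, each with and without lipopolysaccharide (LPS), the outer membrane glycolipid of Gram-negative bacteria.

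There were 3 libraries of resident macrophages given 1 µg/ml LPS for 4 h, 3 of untreated resident macrophages, 2 of bone marrow derived macrophages (BMDM) given the same LPS, and 2 of untreated BMDM. Resident macrophages, labelled CD163+, are marrow cells that a magnetic column held back without staining. BMDM, labelled CD163-, were grown from the cells that ran through that column, in medium with 10% serum and 20% L929 cell supernatant, a source of macrophage growth factor, for 6 days by the protocol and 7 days by the titles. The labels do not say whether libraries of 1 group came from separate mice or cultures, and the tests therefore measure only how far these libraries spread, which may be technical.

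The values are gene read counts that were divided by 1 factor per library, called normalized reads here, and they correspond to 27.1 to 37.7 M gene reads per library. Their sum per library was 38.6 to 38.8 M in LPS-treated BMDM and 24.7 to 26.0 M in untreated BMDM, and 26.5 to 32.4 M over all resident libraries. Replicate 1 of each resident group carried the Y-linked gene Ddx3y (1975 normalized reads in the LPS-treated library and 1856 in the untreated one), which stood at the floor of 1 in the other 8. The X-linked gene Xist was at 2172 and 1651 in these 2 libraries and at 7873 or more in the other 8. In each resident group replicate 1 thus held cells that replicates 2 and 3 lacked. Cd163 fitted the labels, at 4131 to 10740 normalized reads over all resident libraries, against 14.4 to 53.9 over all BMDM libraries.

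These genes are used to recognise macrophages in many tissues. Adgre1 encodes an adhesion G protein-coupled receptor of the macrophage surface, Sirpa the inhibitory receptor that binds CD47, and Aif1 the calcium-binding, actin-bundling protein IBA1. Lyz2 encodes the secreted lysozyme that cuts bacterial cell walls, Cd68 and Cd63 encode membrane glycoproteins of endosomes and lysosomes, and Mpeg1 encodes perforin-2, a pore-forming protein of phagosomes. Several of them are also made by monocytes, granulocytes, platelets or dendritic cells, and ETS factors such as PU.1 bind many macrophage promoters.

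In the GENCODE M21 annotation of mm10, Lyz2 is at chr10:117277331-117282321 on the minus strand and Cd63 at chr10:128900989-128912822 on the plus strand. Adgre1 is at chr17:57358691-57483527 (plus strand) and Aif1 at chr17:35170991-35176068 (minus strand). Sirpa is at chr2:129592835-129632228 (plus strand), Cd68 at chr11:69664213-69666153 (minus strand) and Mpeg1 at chr19:12460779-12465283 (plus strand). No exon of another annotated gene overlaps an exon of these 7.

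RefSeq promoters (GRCm38.p6) were matched for 5 of the 7 genes. Shown are 3 genes that were lower in resident macrophages, Lyz2, Mpeg1 and Cd68, and Aif1, which was higher. The window is the 250 bases before the RefSeq start, without the 49 bases of Lyz2 and the 16 of Aif1 that lie inside the GENCODE gene. Capitals mark GAGGAA or GGAAGT, letters typical of ETS sites, on either strand (on the other strand they read TTCCTC and ACTTCC).
Lyz2, chr10:117282322-117282522, minus strand: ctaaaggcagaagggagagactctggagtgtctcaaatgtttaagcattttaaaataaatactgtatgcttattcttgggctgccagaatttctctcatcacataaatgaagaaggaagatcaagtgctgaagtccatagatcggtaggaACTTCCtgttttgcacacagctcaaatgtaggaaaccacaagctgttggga
Mpeg1, chr19:12460520-12460769, plus strand: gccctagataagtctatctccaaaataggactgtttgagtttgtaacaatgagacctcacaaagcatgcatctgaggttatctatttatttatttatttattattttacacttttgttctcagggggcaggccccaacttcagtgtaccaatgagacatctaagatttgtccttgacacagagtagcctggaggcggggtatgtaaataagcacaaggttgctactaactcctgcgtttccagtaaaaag
Cd68, chr11:69666171-69666420, minus strand: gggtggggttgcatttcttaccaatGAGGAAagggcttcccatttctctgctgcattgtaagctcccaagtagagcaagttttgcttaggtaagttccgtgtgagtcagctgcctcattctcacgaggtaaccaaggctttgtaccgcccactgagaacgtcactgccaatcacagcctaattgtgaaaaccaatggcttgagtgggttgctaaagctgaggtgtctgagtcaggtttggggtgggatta
Aif1, chr17:35176069-35176302, minus strand: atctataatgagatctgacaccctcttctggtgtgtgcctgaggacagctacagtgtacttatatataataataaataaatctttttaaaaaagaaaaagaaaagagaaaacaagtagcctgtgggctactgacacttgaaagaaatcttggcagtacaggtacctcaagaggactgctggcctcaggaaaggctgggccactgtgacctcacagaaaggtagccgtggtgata
One or the other motif is in 36.7% of all 32851 RefSeq promoter windows of 250 bases. Lyz2 has 1 match that begins 100 bases before its RefSeq start, and Cd68 has 1 that begins 225 bases before. The single match of Aif1, which begins 7 bases before the RefSeq start, is in the part not printed. Cd63, whose window of 250 bases lies wholly inside its GENCODE gene, has 3 matches, and Mpeg1 has none in its window. A match describes letters and not a bound site.

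Resident macrophages held less of 5 of the 7 pan-macrophage transcripts than BMDM with and without LPS, and more of Aif1. Sirpa was called lower in resident macrophages without LPS and was not called with LPS on both sides. Without LPS all 7 genes differed between the origins, at 6 lower and 1 higher in resident macrophages. The calls (limma on log2(value + 1), Benjamini-Hochberg adjusted p under 0.05) covered 71.9% of all 13755 genes tested, with 39.2% higher and 32.6% lower in resident macrophages, so that being called is the common state in this comparison. With LPS on both sides, 6 of the 7 differed, 5 lower and 1 higher in resident macrophages, where 71.3% of all genes were called, 36.7% higher and 34.5% lower. The median log2 change of the 7 genes was -0.88 without LPS, against 0.08 over all genes, and -1.12 with LPS, against 0.03 over all genes. Libraries of the origins did not overlap for all 7 genes without LPS, as for 82.7% of all genes, and for 6 of the 7 with LPS, as for 82.4% of all genes. In bulk RNA, fewer cells of a type and less RNA per cell cannot be told apart. The summed level of 16 neutrophil markers was 427398 to 471216 normalized reads in LPS-treated and 253056 to 448965 in untreated resident macrophages, against 7582 to 8007 in LPS-treated and 2662 to 2820 in untreated BMDM. Of these markers 2, Retnlg and Ly6g, stood at the floor in LPS-treated BMDM, Ly6g also in untreated BMDM, and none in the resident groups. Their part in the differences of the 7 genes was not tested.

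**Figure D1:**
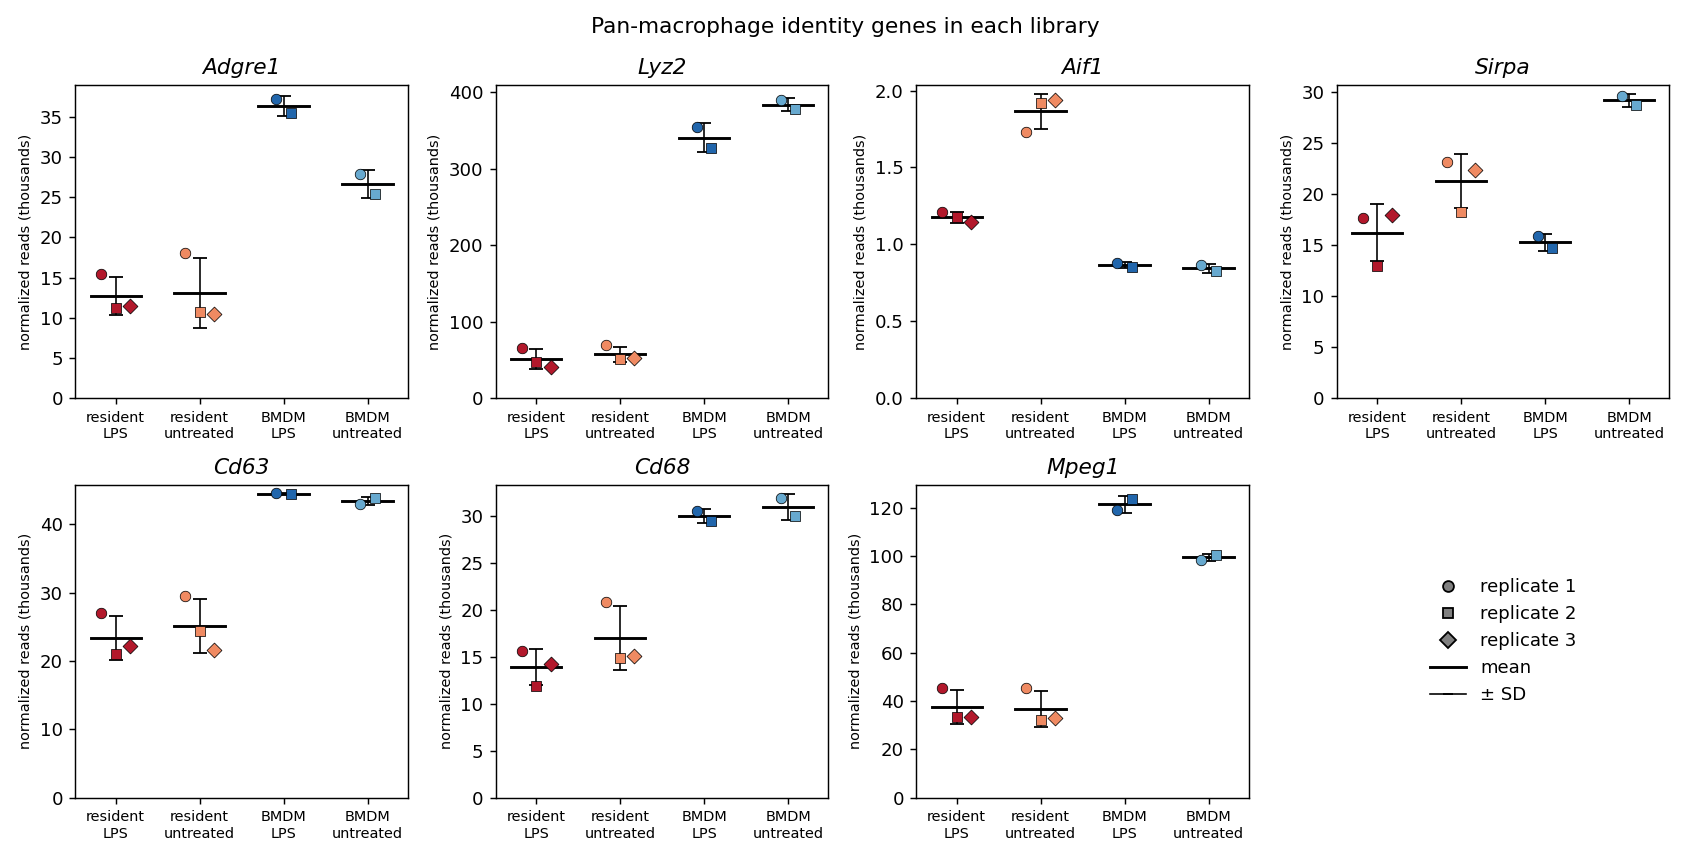
Normalized reads (in units of 1000 reads, linear axis from 0) of the 7 genes in each of the 10 libraries, by group, with the mean and SD. Lyz2 is at 40623 to 68987 normalized reads in the resident libraries and at 327273 to 389702 in the BMDM libraries, and Aif1 is the gene whose resident libraries all sit above its BMDM libraries.

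Lyz2 showed the largest difference of the 7. It had 65690, 47597 and 40623 normalized reads in LPS-treated and 68987, 51746 and 51912 in untreated resident macrophages. The BMDM libraries had 354363 and 327273 with LPS and 389702 and 377817 without. Every BMDM library stood far above every resident one. The level was 6.73-fold lower in resident macrophages than in BMDM without LPS (log2 change -2.75 ± 0.24, SE, limma adjusted p = 2.82e-06) and 6.77-fold lower with LPS (-2.76 ± 0.24, adjusted p = 3.07e-06). Among all genes, the Lyz2 mean ranked 51 in LPS-treated and 28 in untreated resident macrophages, and 5 in LPS-treated and 3 in untreated BMDM. LPS gave a log2 change of -0.18 ± 0.21 in resident macrophages (limma adjusted p = 0.652) and -0.17 ± 0.26 in BMDM (adjusted p = 0.607), and neither passed the test.

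The paralog Lyz1, which encodes the intestinal Paneth cell lysozyme, lies beside Lyz2 on the same strand (chr10:117287797-117292868). It averaged 1226 ± 423 normalized reads in LPS-treated and 1337 ± 275 in untreated resident macrophages (SD, n = 3 each), and 8049 ± 330 in LPS-treated and 9331 ± 220 in untreated BMDM (SD, n = 2 each). Its level was between 2.22% and 2.60% of that of Lyz2 in every library, while both genes moved over several fold. The 2 transcripts are identical at 96.0% of 1262 aligned bases, and 16.1% of the 50-base windows of Lyz1 also occur in Lyz2, so reads counted for Lyz1 may come from Lyz2 and its own level is uncertain.

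Mpeg1 had 45535, 33414 and 33381 normalized reads in LPS-treated and 45255, 32222 and 32819 in untreated resident macrophages. LPS-treated BMDM had 118908 and 123724, and untreated BMDM had 98326 and 100501. The resident libraries overlapped between treatments, and every one was below every BMDM library. Mpeg1 was 2.74-fold lower in resident macrophages than in BMDM without LPS (log2 change -1.45 ± 0.19, limma adjusted p = 7.12e-05) and 3.28-fold lower with LPS (-1.71 ± 0.19, adjusted p = 2.28e-05).

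Adgre1 had 15390, 11165 and 11436 normalized reads in LPS-treated and 18056, 10692 and 10457 in untreated resident macrophages. In BMDM it had 37213 and 35511 with LPS and 27867 and 25467 without. In both resident groups replicate 1 was the highest, and the untreated group had the widest relative spread of any of the 7 genes, with an SD of 33.1% of the mean. The level of this macrophage receptor was 2.11-fold lower in resident macrophages than in BMDM without LPS (log2 change -1.08 ± 0.23, limma adjusted p = 0.00161) and 2.90-fold lower with LPS (-1.54 ± 0.23, adjusted p = 0.000147).

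Cd68 had 15613, 11840 and 14212 normalized reads in LPS-treated and 20866, 14902 and 15114 in untreated resident macrophages. In BMDM it had 30517 and 29464 with LPS and 31864 and 29920 without. The BMDM libraries of both treatments lay close together, above all resident ones. Cd68 was 1.84-fold lower in resident macrophages than in BMDM without LPS (log2 change -0.88 ± 0.16, limma adjusted p = 0.000674) and 2.17-fold lower with LPS (-1.12 ± 0.16, adjusted p = 0.000132).

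Cd63 had 27008, 20966 and 22133 normalized reads in LPS-treated and 29445, 24308 and 21581 in untreated resident macrophages. The values in BMDM were 44510 and 44366 with LPS and 42956 and 43763 without. This tetraspanin was low in resident libraries and high in BMDM libraries, as was Cd68, its companion in late endosomes. Cd63 was 1.74-fold lower in resident macrophages than in BMDM without LPS (log2 change -0.80 ± 0.15, limma adjusted p = 0.000847) and 1.91-fold lower with LPS (-0.94 ± 0.15, adjusted p = 0.000296).

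Sirpa had 17661, 12964 and 17935 normalized reads in LPS-treated and 23195, 18239 and 22375 in untreated resident macrophages. Among BMDM, Sirpa stood at 15845 and 14696 with LPS and 29663 and 28699 without. The highest group was untreated BMDM, and the LPS-treated groups of both origins overlapped. Sirpa was 1.38-fold lower in resident macrophages than in BMDM without LPS (log2 change -0.46 ± 0.16, limma adjusted p = 0.0211). This call ended when untreated resident replicate 2 was left out (-0.36, adjusted p = 0.0719), and likewise without untreated BMDM replicate 1 (-0.44, adjusted p = 0.0988) or replicate 2 (-0.49, adjusted p = 0.0719). With LPS on both sides the difference was 0.07 ± 0.16 (95% interval -0.28 to 0.42, limma adjusted p = 0.704). With library totals set equal it was 0.39 and called (adjusted p = 0.0266).

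Aif1 had 1212, 1175 and 1142 normalized reads in LPS-treated and 1733, 1919 and 1941 in untreated resident macrophages. In BMDM it had 881 and 853 with LPS and 863 and 823 without. The resident groups did not overlap each other or BMDM, while the 2 BMDM groups overlapped. Aif1 was 2.21-fold higher in resident macrophages than in BMDM without LPS (log2 change 1.14 ± 0.08, limma adjusted p = 5.08e-07) and 1.36-fold higher with LPS (0.44 ± 0.08, adjusted p = 0.000512).

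The origins were also compared across treatments. In LPS-treated resident macrophages against untreated BMDM all 7 genes were called, 6 lower and 1 higher, where 75.2% of all genes were called (40.5% higher, 34.7% lower). In LPS-treated BMDM against untreated resident macrophages all 7 were called, 5 higher and 2 lower, where 73.2% of all genes were called (35.1% higher, 38.1% lower). The 2 lower ones were Aif1 (log2 change -1.10 ± 0.08, limma adjusted p = 6.58e-07) and Sirpa (-0.47 ± 0.16, adjusted p = 0.0194). The Aif1 difference between LPS-treated resident macrophages and untreated BMDM, 0.48 ± 0.08 (adjusted p = 0.000248), was 0.19 with library totals set equal (adjusted p = 0.138). Cd63 in LPS-treated BMDM against untreated resident macrophages was 0.84 ± 0.15 (adjusted p = 0.000608), and with quantile normalization 0.14 (adjusted p = 0.197). The Sirpa call in that comparison ended without LPS-treated BMDM replicate 1 (-0.53, adjusted p = 0.0569) or replicate 2 (-0.42, adjusted p = 0.116).

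Ordered by group level, Lyz2 ran from untreated BMDM through LPS-treated BMDM and untreated resident to LPS-treated resident macrophages, and Cd68 ran the same way. In both, the neighbours of 1 origin did not pass the test and the step between origins did. Mpeg1, Adgre1 and Cd63 had LPS-treated BMDM above untreated BMDM, again with no call between neighbours of 1 origin. Sirpa ran from untreated BMDM through untreated and LPS-treated resident macrophages to LPS-treated BMDM, and only its highest step passed the test among neighbours. Aif1 ran from untreated through LPS-treated resident macrophages to LPS-treated and untreated BMDM, and its last step alone did not pass.

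Levels were also divided by length, taken as the merged exons of all annotated transcripts of a gene. Per kilobase of these exons, Lyz2 was the highest and Aif1 the lowest of the 7 in every group. Lyz2 averaged 38984 ± 9831 normalized reads per kb in LPS-treated and 43730 ± 7528 in untreated resident macrophages (SD, n = 3 each), and 258980 ± 14556 in LPS-treated and 291611 ± 6386 in untreated BMDM (SD, n = 2 each). Aif1 averaged 768 ± 22.7 per kb in LPS-treated and 1217 ± 74.7 in untreated resident macrophages, and 566 ± 12.9 in LPS-treated and 551 ± 18.4 in untreated BMDM. Between them Cd68, Mpeg1 and Cd63 followed in this order, except that Mpeg1 stood above Cd68 in LPS-treated BMDM at 27992 against 23859 per kb. This order rests on the merged lengths, 1257 bases for Cd68, 4334 for Mpeg1 and 3682 for Cd63, which has 6 annotated transcripts. A gene whose main transcript is shorter than its merged exons would stand higher, and which transcripts were present was not tested. Adgre1 was above Sirpa except in untreated resident macrophages, where they had 4036 ± 1334 and 4331 ± 541 per kb, within the spread of the libraries.

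In resident macrophages 1 of the 7 genes passed the test for a change with LPS, and that gene was Aif1. With a term in the model for the 2 resident libraries that carried Y-linked transcripts, a fit added after the data were seen, 3 passed, Aif1 (-0.66), Sirpa (-0.40, limma adjusted p = 0.0267) and Cd68 (-0.28, adjusted p = 0.0268), all lower, where 25.1% of all genes were called, 12.8% higher and 12.3% lower. Without the term the calls covered 12.9% of all genes here, 7.36% higher and 5.57% lower with LPS. Aif1 fell 1.58-fold, to 1176 ± 34.7 normalized reads in LPS-treated against 1864 ± 114 in untreated resident macrophages (SD, n = 3 each, log2 change -0.66 ± 0.07, limma adjusted p = 0.000458). Sirpa averaged 16187 ± 2794 in LPS-treated and 21270 ± 2656 in untreated resident macrophages, with no overlap of the libraries, and did not pass (-0.40 ± 0.14, adjusted p = 0.0907). Libraries did not overlap for 2 of the 7 genes, Aif1 and Sirpa, and for 27.1% of all genes. Cd68 gave -0.28 ± 0.15 (adjusted p = 0.25), Cd63 -0.10 ± 0.14 (adjusted p = 0.708), Adgre1 -0.01 ± 0.20 (adjusted p = 0.981) and Mpeg1 0.03 ± 0.17 (adjusted p = 0.947), all with overlapping libraries. The 95% interval of the Adgre1 change ran from -0.46 to 0.44, so a change of this size in either direction was not detectable here.

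In BMDM 1 of the 7 genes, Sirpa, passed the test for a change with LPS, where 57.8% of all genes were called, 28.3% higher and 29.5% lower. Sirpa fell 1.91-fold, to 15270 ± 812 normalized reads in LPS-treated against 29181 ± 681 in untreated BMDM (SD, n = 2 each, log2 change -0.94 ± 0.17, limma adjusted p = 0.000879). Adgre1 averaged 36362 ± 1203 with LPS and 26667 ± 1697 without, a change of 0.45 ± 0.25 that did not pass (limma adjusted p = 0.149). Mpeg1 gave 0.29 ± 0.21 (adjusted p = 0.276). Both were called higher, at the same log2 changes, in 4 other fits of the deposited scaling: array weights, only the BMDM libraries, without the 2 resident libraries with Y-linked transcripts, and with a term for them. Over these fits the limma adjusted p ran from 1.9e-05 to 0.00198 for Adgre1 and from 0.000426 to 0.0177 for Mpeg1, and 65.8% to 79.8% of all genes were called. Without untreated resident replicate 1 Adgre1 was also called (adjusted p = 0.0214). Aif1 gave 0.04 ± 0.08 (adjusted p = 0.722), Cd63 0.04 ± 0.17 (adjusted p = 0.885) and Cd68 -0.04 ± 0.18 (adjusted p = 0.871). Libraries did not overlap for 5 of the 7 genes and for 84.4% of all genes.

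The response of BMDM to LPS depended on how libraries were scaled. Setting library totals equal moved the median change of all genes by LPS in BMDM to -0.64, against -0.04 in the deposited scaling, and 5 of the 7 genes were then called, all lower with LPS, where 72.7% of all genes were called, 15.7% higher and 57.0% lower. Sirpa was at -1.55, Lyz2 at -0.78, Cd68 at -0.65, Cd63 at -0.58 and Aif1 at -0.57. Adgre1 turned to -0.16 and Mpeg1 to -0.32, neither called. Equal totals divide all genes of a library by 1 factor, so places relative to the median of all genes were nearly fixed in advance. Under both of these scalings Adgre1 was above that median and Sirpa below it. With quantile normalization, where the median of all genes was -0.21, Adgre1 was at -0.55 and called (adjusted p = 0.0246), and 5 of the 7 were called, again all lower, where 56.2% of all genes were called, 22.5% higher and 33.7% lower. In resident macrophages the median of all genes was -0.12 with equal totals, and 3 of the 7 genes were called, Aif1 (-0.79), Sirpa (-0.53) and Cd68 (-0.40), all lower with LPS, where 17.4% of all genes were called, 4.7% higher and 12.7% lower. With quantile normalization 5 of the 7 were called in resident macrophages, all lower, where 14.6% of all genes were called, 7% higher and 7.64% lower.

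**Figure D2:**
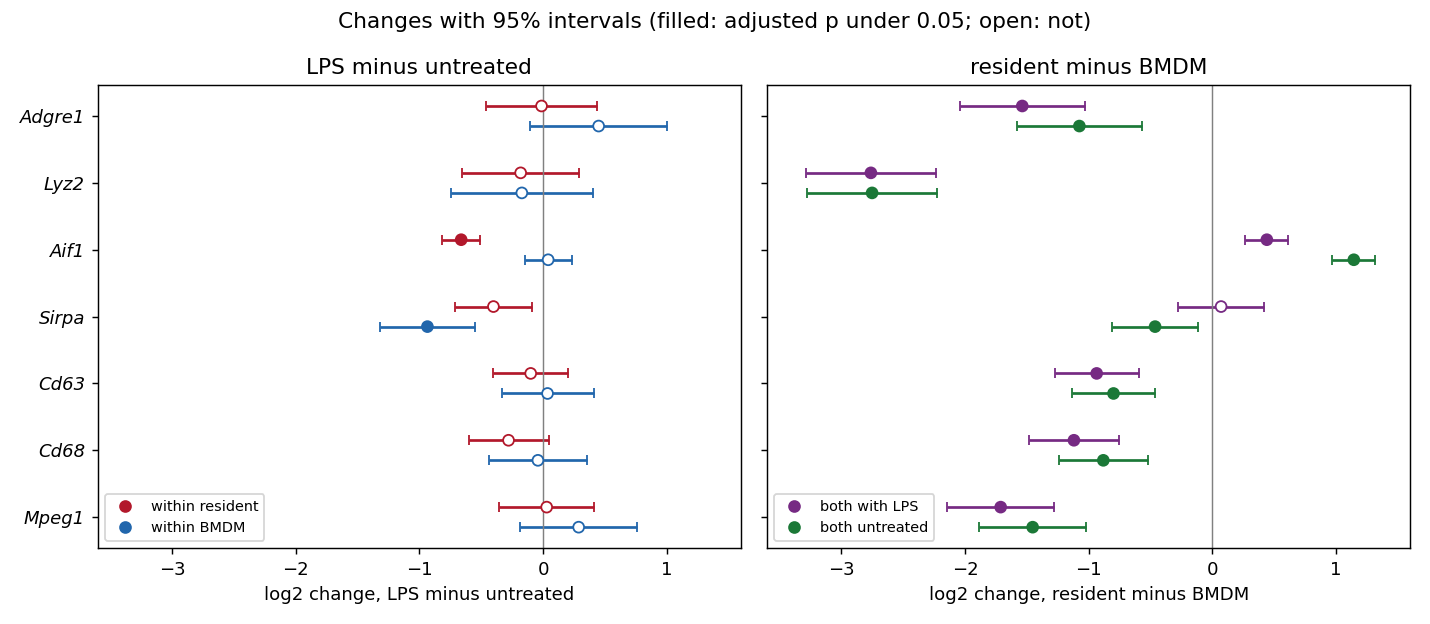
Log2 changes of the 7 genes with 95% intervals, for LPS minus untreated (left) and for resident minus BMDM (right), filled where the limma adjusted p was under 0.05. On the left, Aif1 in resident macrophages (-0.66) and Sirpa in BMDM (-0.94) are filled, and on the right, Aif1 lies above 0 and 5 genes lie below 0 under both treatments.

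**Figure D3:**
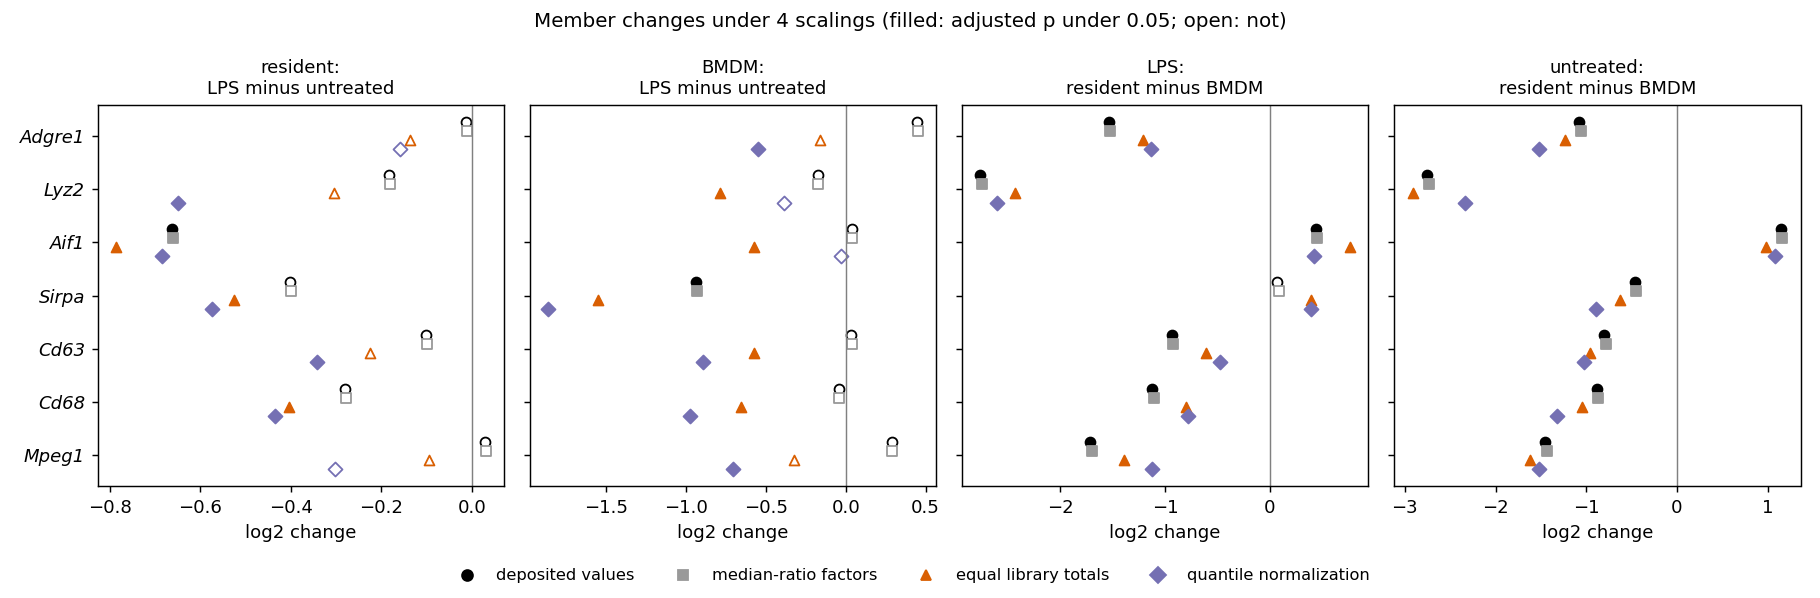
Log2 changes of the 7 genes (x axis) in 4 comparisons under the deposited scaling, recomputed median-ratio factors, equal library totals and quantile normalization, filled where the adjusted p was under 0.05. For LPS in BMDM the points of Adgre1, Aif1, Cd63 and Mpeg1 change sides of 0, while in the right-hand panel, resident minus BMDM without LPS, every point keeps its side.

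The LPS response of Aif1 differed between the origins, with a difference of responses, resident minus BMDM, of -0.70 ± 0.11 (limma adjusted p = 0.000525). It was the only 1 of the 7 called, where 41.8% of all genes were called, 19% higher and 22.8% lower. With library totals set equal the difference was -0.22 and not called (adjusted p = 0.271). With voom on recovered reads, which also scales by library totals, it was -0.21 (limma adjusted p = 0.33). These 2 fits share 1 choice of scaling. For Sirpa the difference was 0.53 ± 0.22 and did not pass (adjusted p = 0.0787), while with equal totals it was 1.02 and called (adjusted p = 0.00176). Equal totals called 53.8% of all genes here. The Sirpa difference gained a call in 7 of 22 settings, equal totals among them, and was above 0 in all 22. Over these settings 4276 to 7468 of all genes were called. For Adgre1 it was -0.46 ± 0.32 (adjusted p = 0.282), for Mpeg1 -0.26 ± 0.27, for Cd68 -0.24 ± 0.23, for Cd63 -0.14 ± 0.22 and for Lyz2 -0.01 ± 0.33. The Adgre1 difference gained a call in 2 of the 22 settings (lowest limma adjusted p = 0.00783) and changed sign in 3.

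Ratios of 2 genes within a library do not depend on its scaling. The log2 ratio of Sirpa to Adgre1 was 0.20, 0.22 and 0.65 in LPS-treated and 0.36, 0.77 and 1.10 in untreated resident macrophages. It was -1.23 and -1.27 in LPS-treated BMDM and 0.09 and 0.17 in untreated BMDM. Both LPS-treated BMDM libraries had a ratio below 0, and the other 8 libraries had one above 0. The log2 ratio of Lyz2 to Adgre1 was 1.83 to 2.09 in LPS-treated and 1.93 to 2.31 in untreated resident macrophages, against 3.20 to 3.25 in LPS-treated and 3.81 to 3.89 in untreated BMDM. That of Aif1 to Adgre1 was -3.67 to -3.25 in LPS-treated and -3.38 to -2.43 in untreated resident macrophages, against -5.40 to -5.38 in LPS-treated and -5.01 to -4.95 in untreated BMDM. The ratio of Mpeg1 to Adgre1 stayed within 1.33 to 1.98 on the log2 scale over all 10 libraries. A ratio shows unequal levels and not which of its genes changed.

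**Figure D4:**
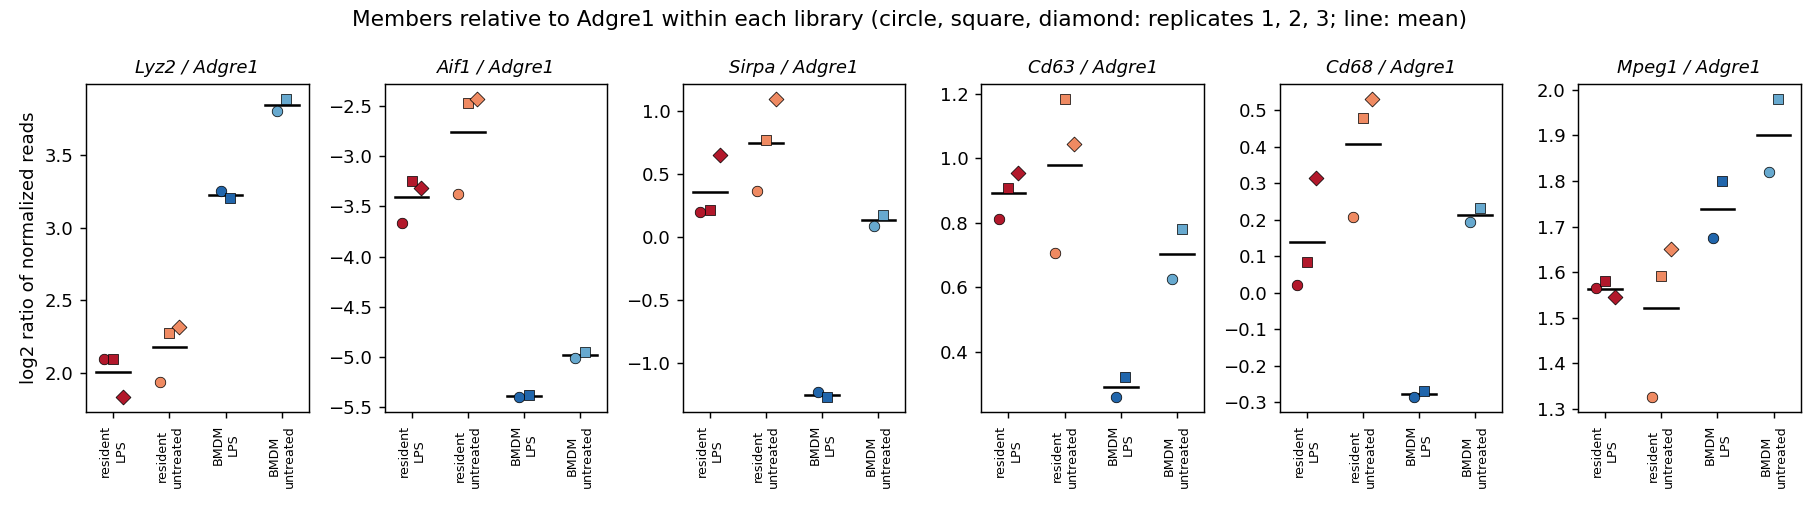
Log2 ratio of 6 genes to Adgre1 within each library (each panel has its own y axis), by group, with the mean. In the Sirpa panel the LPS-treated BMDM libraries are at -1.23 and -1.27, below all others, and in the Lyz2 panel all BMDM libraries are above all resident ones.

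The members' profiles fell near each other to unequal degrees. Likeness was measured as the root mean square difference of the mean-centred log2 values over the 10 libraries, which share their 4 groups. Cd63 and Cd68 were the closest pair at 0.12, followed by Adgre1 and Mpeg1 at 0.17, and Lyz2 and Aif1 were the farthest apart at 1.76. Over all tested genes with a name, the closest to Cd68 were Smpdl3a (0.07), Ctsa (0.07), which encodes the lysosomal enzyme cathepsin A, and Atp6ap1 (0.08), which encodes an accessory protein of the proton pump. Closest to Cd63 were Kbtbd4 (0.06), Alg5 (0.07) and Atp6ap1 (0.08). Closest to Adgre1 were Scpep1 (0.07), Sestd1 (0.13) and Mrpl27 (0.15), and closest to Mpeg1 were Sestd1 (0.11), Ugdh (0.13) and Fabp5 (0.14). Closest to Lyz2 were Lyz1 (0.07), Tspan17 (0.16) and Gas6 (0.18), to Sirpa Osbpl2 (0.08), Pip5k1c (0.12) and Mon1a (0.12), and to Aif1 Acss2 (0.16), Slc39a13 (0.17) and Mettl9 (0.17).

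The relatives and partners of these genes did not share one direction. Of 26 tested, 13 were higher and 7 lower in resident macrophages than in BMDM without LPS (median 0.54, with quantile normalization 11 higher and 9 lower), and 9 were higher and 12 lower with LPS (median -0.09, with equal totals 12 higher and 7 lower). LPS lowered 4 and raised none in resident macrophages, while with quantile normalization it lowered 7. In BMDM it raised 11 and lowered 5, while with equal totals it raised 4 and lowered 12.

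Of the receptors related to Adgre1, both were higher in resident macrophages under both treatments, opposite to Adgre1. Adgre4 averaged 1270 ± 170 normalized reads in LPS-treated and 1316 ± 134 in untreated resident macrophages (SD, n = 3 each), against 22.1 ± 0.67 in LPS-treated and 27.8 ± 10.9 in untreated BMDM (SD, n = 2 each). Its log2 change was 5.77 ± 0.22 with LPS (limma adjusted p = 1.13e-08) and 5.56 ± 0.22 without (adjusted p = 7.44e-09). Adgre5, which encodes CD97, fell with LPS in BMDM, to 1275 ± 134 in LPS-treated against 3481 ± 589 in untreated BMDM (-1.44 ± 0.15, adjusted p = 1.72e-05).

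Cd47 encodes the ligand of the Sirpa product. It averaged 9921 ± 856 normalized reads in LPS-treated and 8271 ± 853 in untreated resident macrophages (SD, n = 3 each), and 14433 ± 285 in LPS-treated and 3638 ± 228 in untreated BMDM (SD, n = 2 each). In BMDM it rose 3.97-fold with LPS while Sirpa fell (log2 change 1.99 ± 0.12, limma adjusted p = 1.89e-07), and in resident macrophages its change was 0.26 ± 0.10 and did not pass (adjusted p = 0.105). Without LPS it was 1.18 ± 0.11 higher on the log2 scale in resident macrophages than in BMDM (adjusted p = 4.37e-06). With LPS it was lower in resident macrophages (-0.54 ± 0.11, adjusted p = 0.00108), but with equal totals the difference was -0.22 and not called (adjusted p = 0.0576). Sirpb1a, a relative of Sirpa, was lower in resident macrophages than in BMDM without LPS (-2.72 ± 0.48, adjusted p = 0.000499) and with it (-2.10 ± 0.48, adjusted p = 0.00263), at mean levels of 18.9 to 126 normalized reads.

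Of 12 other tetraspanins, the family of Cd63, 6 were higher and 3 lower in resident macrophages without LPS, and 6 higher and 4 lower with LPS. Tspan33 was the largest rise without LPS (3.24 ± 0.16, limma adjusted p = 3.81e-08) and Cd37 the largest fall (-1.54 ± 0.22, adjusted p = 0.000112). With LPS these were Tspan32 (4.45 ± 0.40, adjusted p = 4.67e-06) and Tspan31 (-1.32 ± 0.07, adjusted p = 1.49e-07). LPS raised Tspan33 (2.19 ± 0.17, adjusted p = 1.66e-06) and lowered Tspan14 (-2.58 ± 0.10, adjusted p = 8.13e-09) in BMDM, and Tspan4 was the largest of 4 falls in resident macrophages (-0.82 ± 0.06, adjusted p = 0.000104). Cd63 itself passed the LPS test in neither origin.

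Of 4 LAMP family genes, relatives of Cd68, Lamp2, a main lysosomal membrane protein, was lower in resident macrophages than in BMDM with LPS (-1.67 ± 0.09, limma adjusted p = 9.37e-08) and without it (adjusted p = 3.04e-06), as Cd68 was. Lamp5 was higher in resident macrophages in both (4.16 ± 0.49 without and 3.35 ± 0.49 with LPS), at means of at most 43.1 normalized reads. LPS raised Lamp2 in BMDM (0.80 ± 0.10, adjusted p = 4.23e-05), with equal totals at 0.19 and with quantile normalization at -0.03. Of 2 actin bundling genes set beside Aif1, Fscn1, which encodes fascin, was raised by LPS in BMDM (5.13 ± 0.41, adjusted p = 1.88e-06), and it was higher in resident macrophages than in BMDM without LPS (4.69 ± 0.37, adjusted p = 1.57e-06). Lcp1, which encodes L-plastin, was lower in resident macrophages with LPS (-0.90 ± 0.14, adjusted p = 0.000231), while with quantile normalization it was at -0.17 and not called (adjusted p = 0.347).

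Other genes by which macrophages are recognised also moved both ways between the origins. Of 19 tested, 5 were higher and 10 lower in resident macrophages without LPS (median -0.34), and 3 were higher and 13 lower with LPS (median -1.23). Axl, which encodes a receptor for apoptotic cells, averaged 48273 ± 4007 normalized reads in LPS-treated and 54222 ± 9104 in untreated resident macrophages (SD, n = 3 each), against 10979 ± 1610 in LPS-treated and 4155 ± 501 in untreated BMDM (SD, n = 2 each). The scavenger receptor gene Msr1 had the opposite order, at 1464 ± 310 in LPS-treated and 1028 ± 41.3 in untreated resident macrophages, against 40279 ± 638 in LPS-treated and 9492 ± 19.5 in untreated BMDM. Axl changed by 2.14 ± 0.16 with LPS (limma adjusted p = 1.01e-06) and 3.70 ± 0.16 without (adjusted p = 1.52e-08), and Msr1 by -4.80 ± 0.14 with LPS (adjusted p = 2.3e-09) and -3.21 ± 0.14 without (adjusted p = 1.6e-08).

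Csf1r, which encodes the receptor for macrophage growth factor, was lower in resident macrophages, as 6 of the 7 genes were without LPS. It averaged 13564 ± 1493 normalized reads in LPS-treated and 17253 ± 3216 in untreated resident macrophages (SD, n = 3 each), against 42128 ± 96.0 in LPS-treated and 60440 ± 1142 in untreated BMDM (SD, n = 2 each). The log2 change between the origins was -1.64 ± 0.15 with LPS (limma adjusted p = 5.37e-06) and -1.82 ± 0.15 without (adjusted p = 2.27e-06). LPS lowered Csf1r in BMDM (-0.52 ± 0.17, adjusted p = 0.0211). Over the 19 genes, LPS raised 1 in resident macrophages, Msr1 (0.49 ± 0.12, adjusted p = 0.0277), and lowered 4, led by the LPS receptor gene Tlr4 (-0.85 ± 0.10, adjusted p = 0.000722), while with equal totals it raised 1 and lowered 7 and with quantile normalization it raised 2 and lowered 9. In BMDM it raised 12, led by Tfec (3.08 ± 0.19, adjusted p = 2.44e-07), and lowered 1, Csf1r, while with equal totals it raised 9 and lowered 7 and with quantile normalization it raised 7 and lowered 7.

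**Figure D5:**
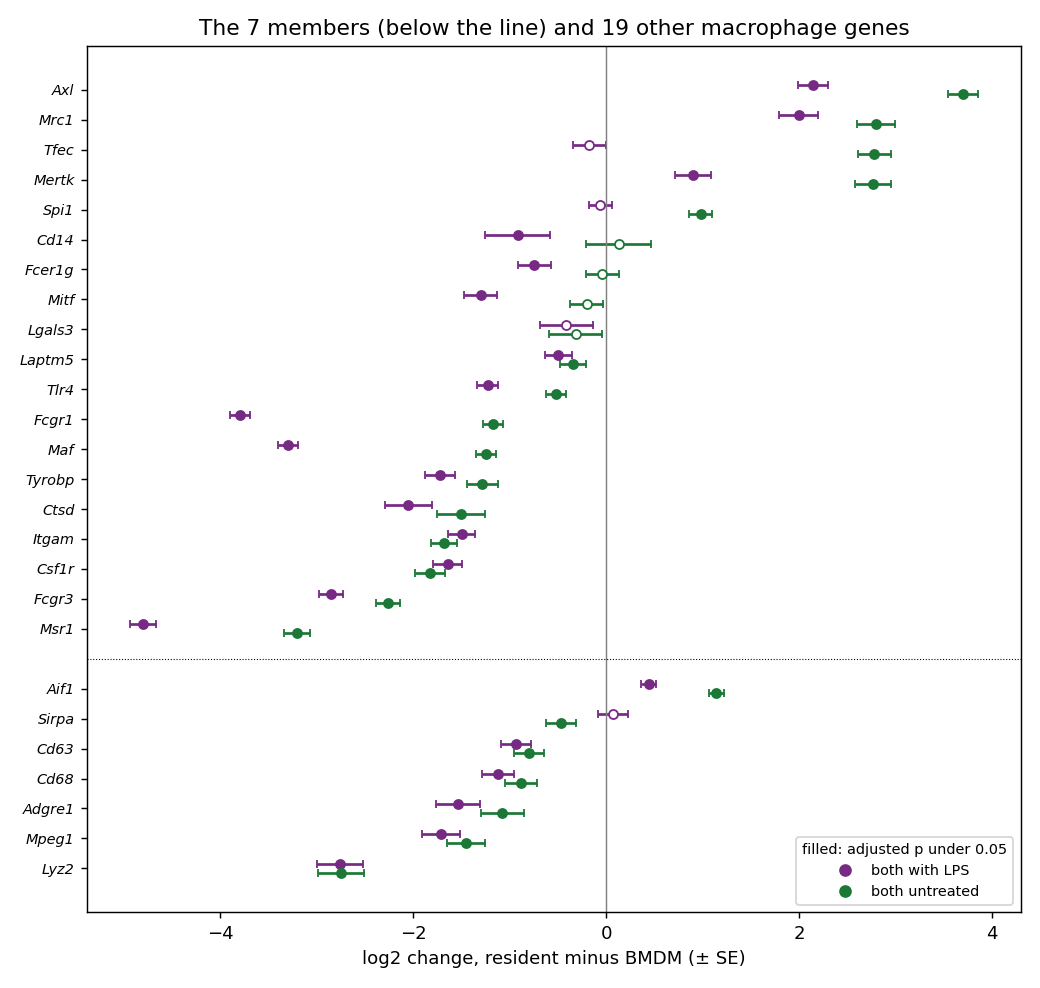
Log2 change, resident minus BMDM, with its SE, for the 7 genes (below the dotted line) and 19 other macrophage genes, with LPS and without, filled where the limma adjusted p was under 0.05. Changes run from -4.80 (Msr1 with LPS) to 3.70 (Axl without LPS), and 5 of the 7 genes lie below 0 under both treatments.

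Transcripts of other marrow cells besides neutrophils differed between the origins along with the 7 genes. The sum of 13 erythroid markers was 56925 to 81953 in LPS-treated and 52196 to 70836 in untreated resident macrophages, against 60.5 to 64.6 in LPS-treated and 91.6 to 96.4 in untreated BMDM. The sum of 9 megakaryocyte and platelet markers was 18732 to 49463 in LPS-treated and 14186 to 45938 in untreated resident macrophages, against 1099 to 1203 in LPS-treated and 1215 to 1272 in untreated BMDM. Sums of 10 B lineage markers (3984 to 7997 over all resident against 376 to 577 over all BMDM libraries), of 8 eosinophil, basophil and mast cell markers (3529 to 7087 against 493 to 633), and of 8 stroma and bone markers (7864 to 11679 against 401 to 845) were also higher in every resident library.

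Markers of 4 other cell types were also summed. The sum of 6 monocyte markers was 14675 to 17175 in LPS-treated and 9911 to 15504 in untreated resident macrophages, against 21441 to 21593 in LPS-treated and 1009 to 1126 in untreated BMDM. Of these 6, 5 were called higher and 1 lower in resident macrophages without LPS, and 3 higher and 3 lower with LPS. In BMDM, LPS itself raised 4 and lowered 1, so the sum with LPS is not a measure of monocyte content alone. The sum of 9 dendritic cell markers was 10932 to 12756 in LPS-treated and 9320 to 12747 in untreated resident macrophages, against 16431 to 17696 in LPS-treated and 3558 to 3643 in untreated BMDM. Without LPS 8 of them were called higher and 1 lower in resident macrophages, and with LPS 4 higher and 1 lower. LPS raised 4 and lowered 1 in BMDM. Measured osteoclast markers (5) summed to 21604 to 39438 over all resident and 14177 to 15434 over all BMDM libraries. They did not share one direction, with 2 called higher and 3 lower in resident macrophages without LPS, and 2 higher and 2 lower with LPS. T and NK cell markers (8) summed to 314 to 674 over all resident and 97.7 to 654 over all BMDM libraries. In resident macrophages 7 of these were called higher and 1 lower without LPS, and 6 higher and 1 lower with LPS. The part of these cells in the differences of the 7 genes was not tested.

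Within the resident groups the library of replicate 1 stood apart for these genes. In each of the 2 groups 6 of the 7 genes were highest in replicate 1, as were 36.6% of all tested genes in the LPS-treated and 39.5% in the untreated group. The exceptions were Sirpa with LPS, highest in replicate 3, and Aif1 without LPS, lowest in replicate 1. The same 2 libraries held the Y-linked transcripts and the lowest neutrophil sum of their group. With both left out, the difference between resident and BMDM libraries was still called for all 7 genes without LPS and for the same count of 6 with LPS. The LPS response of resident macrophages was still called for Aif1 alone of the 7. Of all genes, that fit called 76.2% between the origins without LPS, 77.4% with LPS, and 21.1% for the resident LPS response.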

How the data were processed

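RNA sequencing libraries were labelled with their origin and treatment, and all 10 were used. The deposited values are a signal in scaled reads. Tested on the table, 100% of the values above the floor of 1 and up to 1000 reads were, within a tolerance of 0.02, a whole number of a library's own step (0.892 to 1.35). Alignment used HISAT 0.1.7 to mm10, per the submitters' processing notes, while for the gene annotation and the counting program the entry is: not given in the sources used here. Values were analysed as log2(value + 1) with limma 3.58.1 in R 4.3.3, with a variance trend. Of the genes, 13755 reached 10 in 2 or more libraries and were tested, and 54 were left out. A single model took the 4 groups and all 10 libraries, leaving 6 residual degrees of freedom. Tests were 2-sided, with Benjamini-Hochberg adjustment across every tested gene within each of 7 contrasts. The analysis was tested on simulated data. An edgeR test was planned in case the table held raw counts and was not run, because the values are scaled.

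The 7 genes and the gene lists were chosen with earlier results of these data known, from general knowledge. Of 143 listed genes 137 are in the table, and 1 further gene is not reported here. Named relatives, partners and other macrophage genes are the largest called rise and fall of each list in the comparisons within 1 origin or 1 treatment, plus Lyz1, Cd47 and Csf1r, and the 3 genes with the most similar profile per member. Intervals of read depth apply to counting error only. Alternatives were other pseudocounts and filters, other scalings, other variance models, fitting only the groups compared, and leaving out each library, or both libraries with Y-linked transcripts. Voom on recovered reads and a term for those 2 libraries were chosen after seeing the data. Voom was run without further normalization factors, so it scales by library totals and is not independent of the setting with equal totals. Figures were drawn with matplotlib 3.10.9.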

Additional observations from a re-analysis of the deposited data

Results flagged for a closer look

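The LPS response of Aif1 differed between the origins by the test of the difference itself, at -0.70 on the log2 scale (resident minus BMDM, limma adjusted p = 0.000525). LPS lowered Aif1 in resident macrophages in 3 of 3 libraries, all below every untreated library, and its levels overlapped between the BMDM groups. With equal library totals the difference was -0.22 and did not pass.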

How the results depend on the processing

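Over 23 settings, 1025 of 1120 values of the 7 genes kept their direction and their side of the threshold, 10 lost a call, 37 gained one and 48 changed sign. Leaving out a library of a group not compared does not alter a log2 change, so part of the kept directions was fixed in advance. No paired analysis was run, because the labels number the libraries in a single run and give no replicate number that groups share. Megakaryocyte and platelet sums of resident replicates 1 to 3 nonetheless kept their order, at 18732, 49463 and 31214 with LPS and 14186, 45938 and 32032 without. Erythroid sums did not, at 81953, 56925 and 63518 with LPS and 52196, 52688 and 70836 without. Whether such libraries share a source was not tested, and variation shared by pairs would remain in the spread that the tests used.

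Of the resident LPS response, 5 of the 7 genes were called with quantile normalization (14.6% of all genes). Equal totals (17.4%), voom and a term for the Y-linked libraries (25.1%) each gave 3, against 1 as reported (12.9%). Leaving out 1 library kept that count at 1. Over all genes 645 were called when only the groups compared were fitted, 2893 without both Y-linked libraries, 3449 with the term, and 970 to 2290 when 1 library was left out, lowest without LPS-treated replicate 2 and 1185 without untreated replicate 3, against 1779. Of the BMDM LPS response, 5 genes were called with quantile normalization, equal totals and voom, 4 with only the groups compared, 3 with array weights, without both Y-linked libraries and with the term, and 1 to 2 when 1 library was left out (2 without untreated resident replicate 1). For the difference of responses 4 were called with quantile normalization, 3 with the term, 2 with array weights, voom and without both Y-linked libraries, and 1 to 2 when 1 library was left out. For LPS in BMDM, 56.2% of all genes were called with quantile normalization, 72.7% with equal totals and 79.8% with only the groups compared. Array weights gave 73.7%, leaving out both Y-linked libraries 67.1% and the term 65.8%. For the difference of responses quantile normalization gave 39.4% of all genes and the term 52.5%. Array weights gave 54.3% there, and leaving out both Y-linked libraries 49.6%. No share with voom is given here, so the voom counts of the 7 genes cannot be weighed against all genes. Leaving out 1 library called 6372 to 8538 of all genes for LPS in BMDM, against 7953 as reported. For the difference of responses it called 4276 to 5954, against 5752. The cause of these moves in the counts was not tested.

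Signs changed for genes without a call in the reported fit, and some were called after the change. For LPS in BMDM these included Adgre1 with quantile normalization, and Aif1 and Cd63 with equal totals, all lower. For the difference of responses the lowest limma adjusted p over the settings was 0.00639 for Cd63 and 0.011 for Cd68. The values were as follows. In the BMDM LPS response, Adgre1 was at -0.55 (quantile), -0.16 (equal totals) and -0.16 (voom), Aif1 at -0.028, -0.57 and -0.57, Cd63 at -0.89, -0.58 and -0.58, and Mpeg1 at -0.71, -0.32 and -0.32, while Cd68 was at -0.088 to 0.0032 when 1 library was left out. In the resident LPS response, Mpeg1 was at -0.30 (quantile), -0.095 (equal totals and voom), and -0.12 to 0.19 when 1 library was left out. Adgre1 was there at 0.10 (array weights and without both Y-linked libraries), and -0.16 to 0.24 when 1 library was left out, where Cd63 was at -0.21 to 0.020. For the difference of responses, quantile normalization gave Adgre1 0.39, Cd63 0.55, Cd68 0.54 and Mpeg1 0.40. Equal totals and voom gave Adgre1 0.027, Lyz2 0.48, Cd63 0.35, Cd68 0.25 and Mpeg1 0.23. Lyz2 was there at 0.0056 with array weights and -0.20 to 0.14 when 1 library was left out. Sirpa between the LPS-treated groups was at -0.0011 without both Y-linked libraries and -0.012 to 0.22 when 1 library was left out.

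The share of called genes that were higher was 56.9% for LPS in resident macrophages, against 27.1% with equal totals. It was 49.0% for LPS in BMDM against 21.6% with equal totals, and 54.6% for resident against BMDM without LPS, 41.5% with quantile normalization. With LPS it was 51.5%, against 68.3% with equal totals. It was 53.9% for LPS-treated resident against untreated BMDM (41.6% quantile, 42.2% equal totals), 47.9% for LPS-treated BMDM against untreated resident macrophages (27.1% equal totals), and 45.5% for the difference of responses (56.9% quantile, 75.4% equal totals). With 2 or 3 libraries a group, small changes could not be told from the spread between libraries.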
